A study of Mus musculus with 12 samples.

Results

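Potassium channels that repolarise the heart were examined in the left ventricle of mice with and without Gch1 in their cardiomyocytes. The 9 members were Kcnq1, Kcne1, Kcnd2, Kcnd3, Kcnip2, Kcna5, Kcnj2, Kcnj11 and Kcnk3. They were taken by symbol from GENCODE mouse M21, and all 9 were found among the 26921 genes of the raw count table. RNA was sequenced from 6 WT and 6 cmGch1 KO mice, 1 library per animal, aged 16 weeks. WT mice were Gch1 flox/flox, with loxP sites flanking exons 2 and 3, and cmGch1 KO littermates carried these alleles and a heterozygous Cre transgene under the promoter of α-MHC, a myosin gene of cardiomyocytes. Gch1 encodes GTP cyclohydrolase I, the enzyme that starts the synthesis of tetrahydrobiopterin. No group with Cre and unfloxed alleles was among the 12 libraries, so the deletion and the transgene cannot be told apart.

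Potassium leaving the cardiomyocyte ends the action potential and holds the resting potential. In the mouse ventricle, where the action potential is short, fast transient outward and ultrarapid delayed rectifier currents carry most of the repolarisation, while the slow delayed rectifier is a minor current in the adult. A channel is built from pore-forming subunits and from smaller auxiliary subunits that set its gating and its arrival at the membrane.

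The WT libraries held 22356463 to 37917806 counts each and the cmGch1 KO libraries 19921398 to 35480715. Gch1 itself was 10.7 ± 0.979 cpm (mean ± SD, n = 6; cpm being the count as a share of the library total, scaled by the TMM factors of edgeR) in WT and 5.51 ± 0.859 cpm in cmGch1 KO, without overlap. Ventricular cardiomyocyte markers (8 genes) summed to between 57162 and 60524 cpm in WT and between 51612 and 56377 cpm in cmGch1 KO, with no single gene of the list past an FDR of 0.05 by edgeR, DESeq2 or limma, or under an unadjusted p of 0.05 by edgeR. Their log2 fold changes were negative in 7 of 8. Fewer cells of a type and less RNA per cell cannot be told apart in tissue RNA. Of the atrial markers, Bmp10 averaged 0.119 cpm and the summed list of 6 genes ranged from 98.8 to 614 cpm in WT and from 284 to 785 cpm in cmGch1 KO. Nppa of that list, which encodes atrial natriuretic peptide and is also made by stressed ventricle, was 153 ± 64.8 cpm in WT and 442 ± 166 in cmGch1 KO (SD, n = 6; log2 fold change 1.53, Benjamini-Hochberg adjusted p = 0.0240 by edgeR quasi-likelihood). The other tested atrial genes did not pass the FDR threshold, with log2 fold changes of 0.11 (Myl7), 0.17 (Myl4), 0.04 (Stard10) and -0.36 (Sln). Their levels varied between libraries: Myl7 ran from 3.26 to 121 cpm in WT and from 18.1 to 84.8 cpm in cmGch1 KO. Macrophage markers (5 genes) summed to 77.4 to 95.4 cpm in WT and 92.9 to 107 in cmGch1 KO. Of the 5, Cd68, Csf1r, Adgre1 and Mrc1 had a positive change with an unadjusted p under 0.05 by edgeR. The log2 fold change of Cd163 was -0.05, and none of the 5 passed the FDR threshold by edgeR, DESeq2 or limma. Among 6 pericyte and smooth muscle markers 3 changes were positive and 3 negative. Acta2 of that list averaged 126 cpm in WT and 199.7 in cmGch1 KO, without overlap (log2 fold change 0.66, Benjamini-Hochberg adjusted p = 0.00672 by edgeR quasi-likelihood). The other log2 fold changes of the list ran from -0.40 (Tagln) and -0.24 (Myh11) to 0.13 (Cspg4), and none passed the FDR threshold. All 6 fibroblast markers had a positive change, 2 with an unadjusted p under 0.05 by edgeR and none past the FDR threshold. cmGch1 KO replicates 2 and 3 had 87.1 to 99.6 cpm of Xist and 0 counts of 4 Y-linked genes, whereas the other 10 libraries had at most 0.235 cpm of Xist, so both libraries without Y-linked RNA were in 1 genotype.

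The comparison of cmGch1 KO with WT showed 1 member higher, Kcnq1, and 1 member lower, Kcnd2, with the other 7 not past an FDR of 0.05 (quasi-likelihood test of edgeR, Benjamini-Hochberg adjusted over 11225 tested genes). All 9 members passed the filter of cpm over 3 in at least 6 libraries. Over all tested genes 0.677% were higher and 0.445% lower in cmGch1 KO. An unadjusted p under 0.05 was reached by 4 of 9 members (Kcnq1 and Kcne1 with a positive change, Kcnd2 and Kcnj11 with a negative one), beside 11.5% of all tested genes in either direction. The cpm ranges of the genotypes did not overlap for 2 members, Kcnq1 and Kcnd2, as for 1.87% of all tested genes. The log2 fold change (cmGch1 KO against WT) was positive in 3 members and negative in 6, with a median of -0.06, and the median of all tested genes was -0.01.

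**Figure D1:**
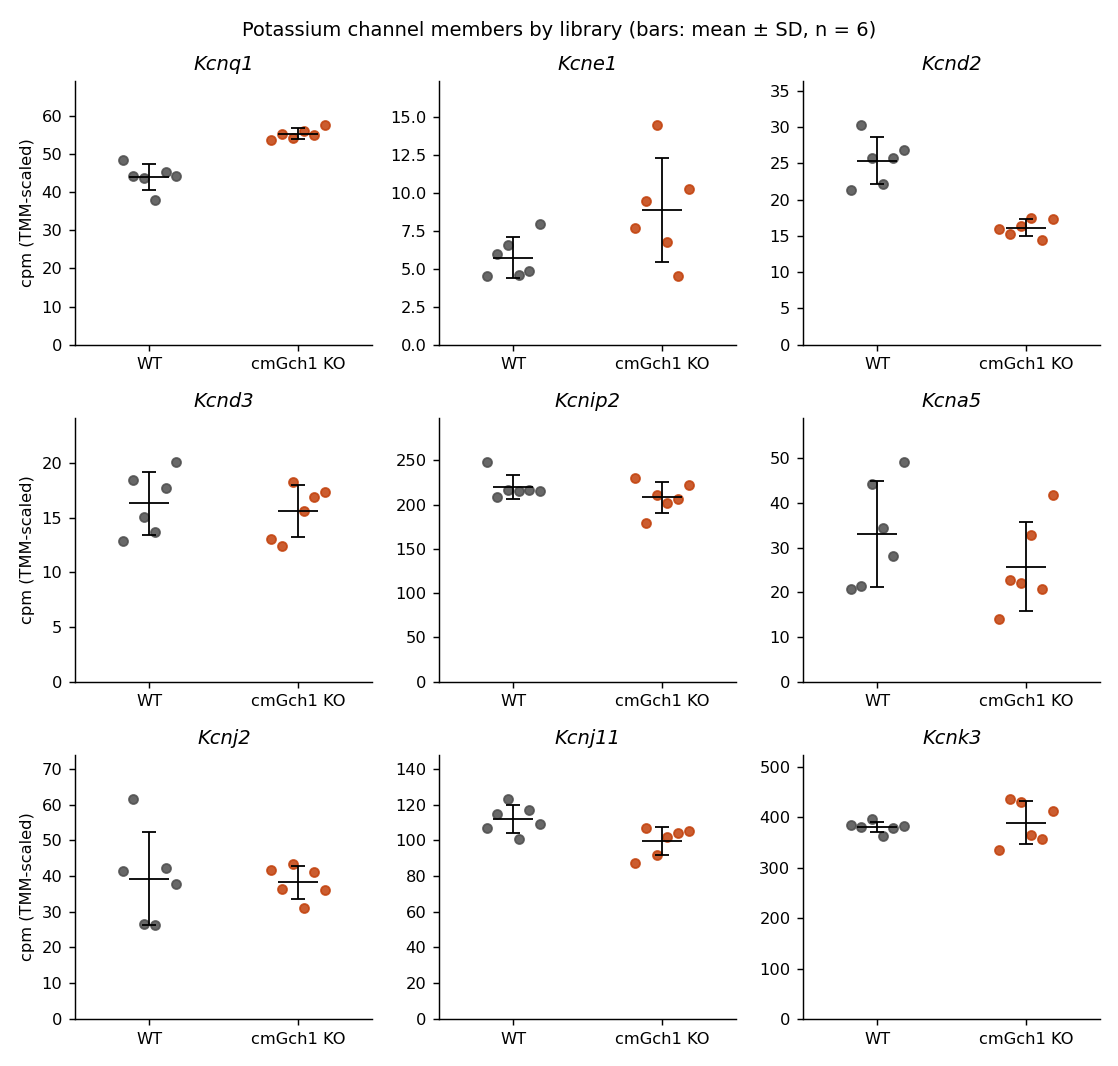
Scaled cpm (linear y axis from 0) of each member in the 6 WT (grey) and 6 cmGch1 KO (orange) libraries, 1 point per library, with the mean ± SD. All cmGch1 KO points lie above all WT points for Kcnq1 and below them for Kcnd2, and the points of the genotypes overlap for the other 7 members.

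Per kilobase of annotated exon, the only scale here on which genes are compared with each other, Kcnk3 was the most abundant member in WT hearts at 95.8 ± 2.71 cpm per kb (SD, n = 6). Kcnip2 followed at 63.3 ± 3.98 and Kcnj11 at 30.4 ± 2.06 cpm per kb, and the ranges of these 3 genes in WT did not overlap. Below them, neighbouring genes were less distinct. Kcna5 (11.5 ± 4.12 cpm per kb), Kcnq1 (10.7 ± 0.845) and Kcnj2 (7.22 ± 2.39) overlapped in turn, and Kcna5 exceeded Kcnq1 in 3 of 6 WT libraries. Kcnd2, at 4.92 ± 0.636 cpm per kb, overlapped with Kcnj2 but not with the 2 lowest genes, Kcne1 (1.79 ± 0.419) and Kcnd3 (1.70 ± 0.300), which overlapped with each other. In cmGch1 KO hearts the level of Kcnd2 averaged 3.13 ± 0.220 and that of Kcne1 2.76 ± 1.07 cpm per kb, and their ranges overlapped. The sum over all 9 members lay between 214 and 235 cpm per kb in WT and between 207 and 239.7 cpm per kb in cmGch1 KO. Exon length here joins all annotated transcripts of a gene, so a gene with many isoforms has a lower value per kb than its main transcript would give.

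**Figure D2:**
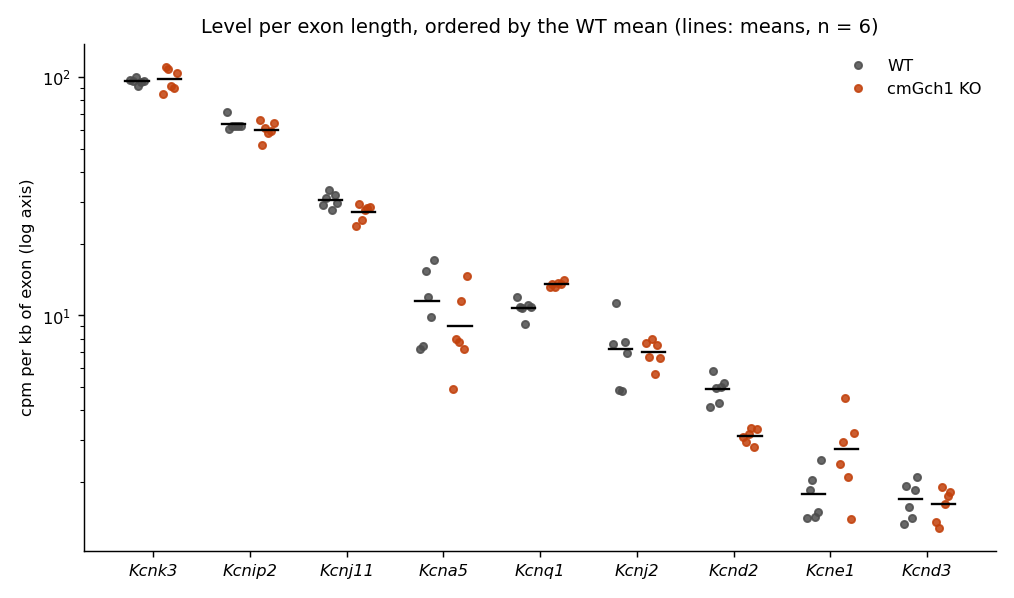
Level of each member in cpm per kb of exon (log y axis), ordered by the WT mean, with 1 point per library and a line at the mean of 6 libraries. The members span from 1.70 (Kcnd3) to 95.8 cpm per kb (Kcnk3) in WT.

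Kcnq1 (ENSMUSG00000009545, chr7:143106362-143427042, plus strand, GRCm38) encodes the pore-forming subunit of the slow delayed rectifier, KvLQT1. Its level in WT libraries ran from 37.9 to 48.5 cpm, with a median of 44.2, and in cmGch1 KO libraries from 53.6 to 57.6 cpm, with a median of 55.2. Every cmGch1 KO heart was above every WT heart, and the cmGch1 KO values lay close together, with a coefficient of variation of 2.59% against 7.87% in WT. The mean in cmGch1 KO was 126% of that in WT (log2 fold change 0.33, SE 0.06, 95% interval 0.20 to 0.47, Benjamini-Hochberg adjusted p = 0.0186 by edgeR quasi-likelihood), and 965 to 2079 counts per library lay behind it. An exact two-sided permutation test on cpm gave p = 0.00216, which is the smallest that 924 splits allow. The log2 fold change stayed between 0.29 and 0.41 in 23 alternative analyses, of which 15 kept the FDR under 0.05. Leaving out WT replicate 3 (adjusted p = 0.0599) or any of cmGch1 KO replicates 2 (0.0564), 3 (0.0539), 5 (0.0514) and 6 (0.0559) took it over the threshold, as did leaving out both libraries with high Xist (0.0995, log2 fold change 0.34), testing without a filter (0.0753) and adding sex-linked expression as a covariate (0.0588), all by edgeR quasi-likelihood, Benjamini-Hochberg adjusted.

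Kcnq1 is a long gene that holds an imprinted antisense RNA, Kcnq1ot1, which shares 121 of its 4093 exon bases on the opposite strand. The libraries were made to keep strand, but the strand setting of the counting is not given in the sources used here. Kcnq1ot1 was 1.58 ± 0.420 cpm in WT and 1.52 ± 0.497 in cmGch1 KO (SD, n = 6), and the part of its reads in the counts of Kcnq1 was not tested. Of the other genes annotated within the span of Kcnq1 and counted, Gm28821 and 4933417O13Rik, both antisense, share no exon bases with Kcnq1.

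Kcne1 (ENSMUSG00000039639, chr16:92345982-92359468, minus strand) encodes minK, the single-pass subunit that slows the opening of KvLQT1. Its level was 4.55 to 7.94 cpm in WT, with a median of 5.40, and 4.50 to 14.5 cpm in cmGch1 KO, with a median of 8.59. The genotypes overlapped fully at the low end: the lowest of all 12 values was in cmGch1 KO replicate 5 and the highest in cmGch1 KO replicate 3. The change had the same sign as that of Kcnq1 and a larger estimate, but its error was also larger (log2 fold change 0.63, SE 0.24, 95% interval 0.13 to 1.14, Benjamini-Hochberg adjusted p = 0.274 by edgeR quasi-likelihood). It rested on 115 to 373 counts per library, and an exact two-sided permutation test on cpm gave p = 0.0606. The 3 highest values were in cmGch1 KO replicates 3, 6 and 2, of which replicates 2 (9.49 cpm) and 3 (14.5 cpm) were the libraries with high Xist. Over the 23 alternatives the log2 fold change ran from 0.36 to 0.77, and none of them passed the FDR threshold. It was 0.44 without cmGch1 KO replicate 3 and 0.36 without both libraries with high Xist. The fit that held a sex-linked covariate and the authors' normalized values both gave 0.38. In the other direction, it was 0.77 without cmGch1 KO replicate 5, 0.74 without WT replicate 6 and 0.72 with scaling by library size alone. Within a library, Kcne1 stood at 0.119 to 0.228 of Kcnq1 per kb in WT and at 0.104 to 0.341 in cmGch1 KO, with the ranges overlapping.

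The transient outward current is carried by Kv4 channels, of which Kcnd2 encodes Kv4.2 and Kcnd3 encodes Kv4.3, with KChIP2, the product of Kcnip2, as the calcium-binding auxiliary subunit. The promoter windows of both pore genes are shown because Kcnd2 had the largest change among the members past the threshold and its paralogue Kcnd3 did not pass it. They are RefSeq sequences of GRCm38.p6 and run 5′ to 3′ from 250 bases before to 50 bases after the start of the RefSeq gene. The window of Kcnd2 is chr6:21215096-21215395 and that of Kcnd3 is chr3:105451640-105451939, both on the plus strand. Both windows end before the start of the gene in GENCODE M21, at 21215503 for Kcnd2 and 105452330 for Kcnd3. Capitals mark the match to GGGCGG, the core of a GC box.
Kcnd2: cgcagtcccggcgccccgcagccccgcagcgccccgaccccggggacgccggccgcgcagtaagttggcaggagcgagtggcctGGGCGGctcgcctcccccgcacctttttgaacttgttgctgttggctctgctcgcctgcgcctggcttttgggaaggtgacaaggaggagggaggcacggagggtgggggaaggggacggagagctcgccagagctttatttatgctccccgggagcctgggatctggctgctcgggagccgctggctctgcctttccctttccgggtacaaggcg
Kcnd3: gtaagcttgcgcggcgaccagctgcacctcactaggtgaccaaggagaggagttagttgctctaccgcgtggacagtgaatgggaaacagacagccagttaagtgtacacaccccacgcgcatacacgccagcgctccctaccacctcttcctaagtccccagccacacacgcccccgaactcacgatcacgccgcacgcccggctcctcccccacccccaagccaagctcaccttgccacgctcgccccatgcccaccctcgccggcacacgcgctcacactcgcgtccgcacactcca
Both windows are rich in GC (68.7% for Kcnd2 and 64.0% for Kcnd3, against a median of 52.7% over 32851 windows) and hold 26 and 25 CpG, against a median of 7. Read on both strands, the TATA motif TATAAA was found in 13.6% of all windows, the E-box CACGTG in 7.15% and the GC box core GGGCGG in 35.7%, and no stretch can match more than 1 of them in full. The Kcnd2 window held 1 GGGCGG and neither of the others, and the Kcnd3 window held none of the 3, which describes these letters in this window alone. Windows were found for 5 of the 9 members.

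Kcnd2 (ENSMUSG00000060882, chr6:21215503-21729805, plus strand) was lower in cmGch1 KO hearts. WT libraries ran from 21.3 to 30.3 cpm, with a median of 25.7, and cmGch1 KO libraries from 14.5 to 17.4 cpm, with a median of 16.2. The lowest WT heart, replicate 1, was still above the highest cmGch1 KO heart, replicate 4. The mean in cmGch1 KO was 63.8% of that in WT (log2 fold change -0.65, SE 0.09, 95% interval -0.84 to -0.45, Benjamini-Hochberg adjusted p = 0.00241 by edgeR quasi-likelihood). Between 328 and 1040 counts per library lay behind it. The summed markers of ventricular cardiomyocytes were also lower in each cmGch1 KO library than in any WT library, and their part in the differences in Kcnd2 and Kcnq1 was not tested. By p-value Kcnd2 was gene 21 of the 11225 tested, and Kcnq1 was gene 77. It kept its call in all 23 alternatives, with a log2 fold change between -0.69 and -0.54. Without both libraries with high Xist the log2 fold change was -0.64 (Benjamini-Hochberg adjusted p = 0.0302 by edgeR quasi-likelihood).

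Kcnd3 (ENSMUSG00000040896, chr3:105452330-105674002, plus strand) did not pass the test. It ran from 12.9 to 20.1 cpm in WT, with a median of 16.4, and from 12.4 to 18.3 cpm in cmGch1 KO, with a median of 16.2. The 2 ranges covered each other almost entirely, and the interval of the log2 fold change was -0.34 to 0.22 around -0.06 (Benjamini-Hochberg adjusted p = 0.930 by edgeR quasi-likelihood). The ratio of Kcnd2 to Kcnd3 per kb, which does not depend on how a library is scaled, was 2.92 ± 0.262 in WT (SD, n = 6; 2.49 to 3.16) and 1.96 ± 0.303 in cmGch1 KO (1.60 to 2.29). The ratio was lower in each cmGch1 KO heart than in any WT heart, and Kcnd2 was the more abundant of the pair per kb in all 12. An antisense gene, Kcnd3os, shares 165 of the 9587 exon bases of Kcnd3.

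Kcnip2 (ENSMUSG00000025221, chr19:45791839-45816061, minus strand) was the second most abundant member per kb. It ran from 209 to 248 cpm in WT, with a median of 216, and from 179.8 to 229.9 cpm in cmGch1 KO, with a median of 209. The genotypes overlapped, and WT replicate 1 stood above the other 5 WT hearts. The log2 fold change was -0.08 (95% interval -0.23 to 0.07, Benjamini-Hochberg adjusted p = 0.767 by edgeR quasi-likelihood). Relative to Kcnd2 and Kcnd3 together, Kcnip2 per kb was 9.76 ± 1.91 in WT (SD, n = 6; 7.72 to 13) and 12.6 ± 1.15 in cmGch1 KO (11.6 to 14.8). These ranges overlapped through WT replicate 1.

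**Figure D3:**
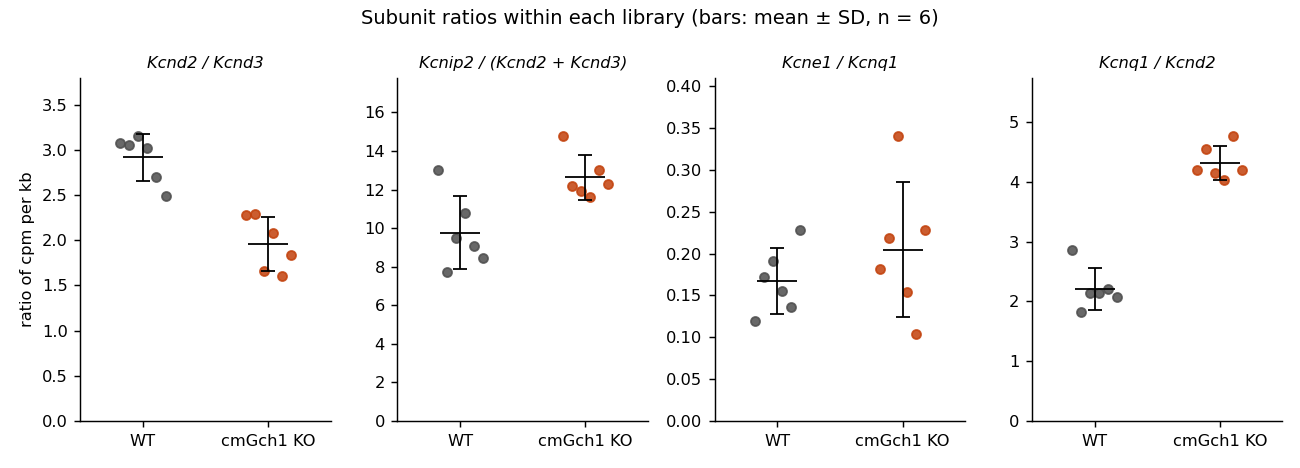
Ratios of members within each library, in cpm per kb (linear y axes from 0), with 1 point per library and the mean ± SD of 6 WT (grey) and 6 cmGch1 KO (orange) libraries. The Kcnd2 to Kcnd3 ratio lies below all WT points in each cmGch1 KO library and the Kcnq1 to Kcnd2 ratio above them, and the other ratios overlap.

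The 2 members past the threshold moved in opposite directions, so their ratio within a library separated the genotypes widely. Kcnq1 stood at 2.21 ± 0.347 times Kcnd2 per kb in WT (SD, n = 6; 1.83 to 2.87) and at 4.32 ± 0.284 times in cmGch1 KO (4.04 to 4.78). The ratio was chosen after both changes were known and is given as a description.

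Kcna5 (ENSMUSG00000045534, chr6:126532551-126535412, minus strand) encodes Kv1.5, a pore subunit of the ultrarapid delayed rectifier, and its exons form 1 block. Its spread between libraries was wide in both genotypes. Values ran from 20.7 to 49.1 cpm in WT, with a median of 31.3, and from 14.1 to 41.8 cpm in cmGch1 KO, with a median of 22.4. The highest library had 3.47 times the cpm of the lowest, and the coefficients of variation were 35.8% in WT and 38.5% in cmGch1 KO. The genotypes overlapped over most of this range, so the log2 fold change of -0.35 had a 95% interval of -0.92 to 0.22 (Benjamini-Hochberg adjusted p = 0.708 by edgeR quasi-likelihood). A change of the size of that in Kcnd2 lies inside this interval. On leaving out 1 library the log2 fold change ran from -0.55 (without cmGch1 KO replicate 6) to -0.20 (without WT replicate 6). Between 344 and 1508 counts per library lay behind these values.

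Kcnj2 (ENSMUSG00000041695, chr11:111066164-111076821, plus strand) encodes Kir2.1, the inward rectifier that sets the resting potential of ventricular myocytes. It ran from 26.2 to 61.5 cpm in WT, with a median of 39.6, and from 31.0 to 43.5 cpm in cmGch1 KO, with a median of 38.6. The WT hearts enclosed the cmGch1 KO hearts on both sides, with WT replicate 2 highest and WT replicate 4 lowest. The log2 fold change was -0.04 (95% interval -0.42 to 0.34, Benjamini-Hochberg adjusted p = 0.974 by edgeR quasi-likelihood). Its ratio to Kcnj12, which encodes the related Kir2.2, was 0.714 ± 0.197 per kb in WT and 0.692 ± 0.122 in cmGch1 KO (SD, n = 6).

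Kcnj11 (ENSMUSG00000096146, chr7:46093953-46100764, minus strand) encodes Kir6.2, the pore of the ATP-sensitive channel, which opens when ATP falls. WT hearts ran from 101 to 123 cpm, with a median of 112, and cmGch1 KO hearts from 87.3 to 107 cpm, with a median of 103. The cmGch1 KO values reached further down, while the upper ones fell within the WT range. The mean was 88.9% of that in WT (log2 fold change -0.17, SE 0.07, 95% interval -0.32 to -0.02), which did not pass adjustment (Benjamini-Hochberg adjusted p = 0.339 by edgeR quasi-likelihood). With scaling by library size alone the log2 fold change was -0.09. Its regulatory partner in the ventricle, Abcc9 (SUR2), had a log2 fold change of -0.05, and the ratio of Kcnj11 to Abcc9 per kb was 0.932 ± 0.145 in WT and 0.862 ± 0.154 in cmGch1 KO (SD, n = 6), with overlap.

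Kcnk3 (ENSMUSG00000049265, chr5:30588170-30625271, plus strand) encodes TASK-1, a two-pore background channel sensitive to extracellular acid. It ran from 364 to 397 cpm in WT, with a median of 381, and from 335 to 436 cpm in cmGch1 KO, with a median of 388. The WT hearts were tightly grouped, with a coefficient of variation of 2.82%, and the cmGch1 KO hearts lay on both sides of them, with 10.9%. The highest cmGch1 KO hearts were replicates 2 and 3, the libraries with high Xist. The log2 fold change was 0.03 (95% interval -0.12 to 0.19, Benjamini-Hochberg adjusted p = 0.938 by edgeR quasi-likelihood), and without those libraries it was -0.05. The opposite-strand transcript Gm9899 shares 229 of the 3976 exon bases of Kcnk3 and averaged 4.57 cpm in WT and 6.32 in cmGch1 KO.

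Beside the members, 51 other potassium channel genes were listed by family, of which 17 passed the filter and none passed the FDR threshold in either direction (edgeR quasi-likelihood, Benjamini-Hochberg adjusted). The Wald test of DESeq2 placed 1 of them lower, Kcnj3, and limma on the authors' normalized values none. Over all 17 genes 6 changes were positive and 11 negative, with a median log2 fold change of -0.05. The nearest to the threshold was Kcnj3, which encodes Kir3.1 of the acetylcholine-gated channel. Kcnj3 ran from 50.9 to 60.0 cpm in WT and from 29.2 to 48.7 cpm in cmGch1 KO, without overlap (log2 fold change -0.43, SE 0.11, Benjamini-Hochberg adjusted p = 0.0846 by edgeR quasi-likelihood). Kcnj5, which encodes its partner Kir3.4, had a log2 fold change of 0.14 (95% interval -0.01 to 0.28). Kcnn1, a small-conductance calcium-activated channel gene, had an unadjusted p under 0.05 as Kcnj3 did (log2 fold change -0.22, Benjamini-Hochberg adjusted p = 0.274 by edgeR quasi-likelihood).

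**Figure D4:**
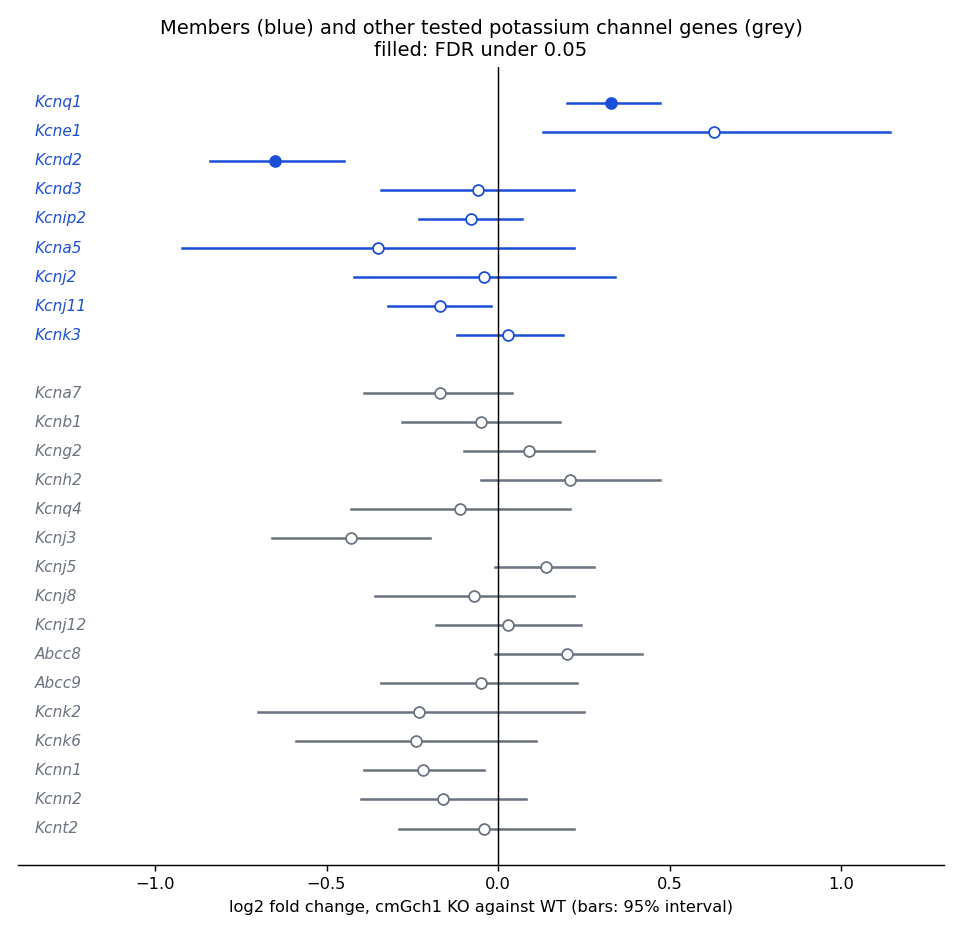
Log2 fold change (cmGch1 KO against WT) with its 95% interval for the 9 members (blue) and for other tested potassium channel genes (grey), from edgeR's quasi-likelihood test on 6 libraries per genotype. Filled points, Kcnq1 and Kcnd2, have an FDR under 0.05. The interval of Kcne1 lies above 0 and those of Kcnj11, Kcnj3 and Kcnn1 lie below 0, although their points are open.

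The other voltage-gated pore genes with the highest levels were Kcng2, a modifying subunit at 49.8 cpm per kb in WT and 53.0 in cmGch1 KO, and Kcnh2, the pore of the rapid delayed rectifier, at 17.8 and 20.6 cpm per kb. Kcnh2 had a log2 fold change of 0.21 (Benjamini-Hochberg adjusted p = 0.557 by edgeR quasi-likelihood). Among 12 auxiliary subunit genes none passed the filter, and Kcne4 was the most abundant at 1.14 cpm per kb in WT. The auxiliary subunit genes among the members, Kcnip2 (63.3 cpm per kb in WT) and Kcne1 (1.79), passed the filter and stood above Kcne4. Kcnip3 stood at 0.369 cpm per kb in WT. Kcna4, which encodes Kv1.4 of the slow transient outward current, is named after its values were seen. It was under the filter, at 1.27 to 1.84 cpm in WT and 2.11 to 3.29 in cmGch1 KO, without overlap, on 33 to 87 counts per library. Its log2 fold change without a filter was 0.77 (Benjamini-Hochberg adjusted p = 0.0464 by edgeR quasi-likelihood).

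Pacemaker channel genes and 10 partners and regulators were read in the same fit, and none passed the threshold by edgeR, DESeq2 or limma. In each list 1 gene, Hcn4 and Klf15, had an unadjusted p under 0.05 by edgeR. Hcn4, a pacemaker channel of nodal tissue, had a log2 fold change of -0.32 (Benjamini-Hochberg adjusted p = 0.372 by edgeR quasi-likelihood). Klf15, a transcription factor with a daily rhythm that controls Kcnip2, was 62.8 ± 14.4 cpm in WT and 42.8 ± 14.4 in cmGch1 KO (SD, n = 6; log2 fold change -0.55, SE 0.20, Benjamini-Hochberg adjusted p = 0.256 by edgeR quasi-likelihood). Irx5, a repressor of Kcnd2 in the subendocardium, had a log2 fold change of 0.29 with a 95% interval of -0.06 to 0.65. Clock genes, given because several channel genes follow the time of day, had a median log2 fold change of -0.28 over 14 tested genes. None of them passed the threshold by edgeR, 2 had an unadjusted p under 0.05 with a negative change, and 1, Hlf, was lower by the Wald test of DESeq2.

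The genes whose log2 cpm followed Kcnd2 most closely over the 12 libraries were Ppp2r3a, Dmd, Hdac4, Exoc2 and Amy1, with Pearson's r from 0.931 (Amy1) to 0.973 (Ppp2r3a) and Spearman's rho from 0.839 to 0.979. Leaving out the 2 libraries farthest from the median of Kcnd2 gave r from 0.901 to 0.956. All 5 were lower in cmGch1 KO past the threshold, so these values hold the difference between genotypes, and within a genotype r for Ppp2r3a was 0.883 over 6 WT and 0.640 over 6 cmGch1 KO libraries. For Dmd, which encodes dystrophin, it was 0.915 in WT and 0.138 in cmGch1 KO, and over all 5 genes it ranged from 0.282 (Amy1) to 0.915 in WT and from -0.0690 (Exoc2) to 0.640 in cmGch1 KO. Amy1 has related amylase genes, and whether reads were shared among them was not tested. Kcnd2 spans 514 kb, longer than 99.3% of the tested genes, and Dmd, Hdac4, Exoc2, Ppp2r3a and Amy1 span 2257, 267, 160.2, 147 and 51.0 kb, against a median of 24.5 kb over all tested genes. Kcnq1, which was higher, spans 321 kb, and Kcnd3, with a log2 fold change of -0.06, spans 222 kb. A relation between span and change was not tested. The closest genes to Kcnq1 were Arhgdia, Ndrg4, Fam161b, Atp6ap1 and Haus8, with r from 0.911 (Haus8) to 0.950 (Arhgdia) over the 12 libraries. All but Atp6ap1 (Benjamini-Hochberg adjusted p = 0.263 by edgeR quasi-likelihood) were past the threshold. Within WT their r lay between 0.555 (Ndrg4) and 0.835 (Arhgdia), and within cmGch1 KO between -0.586 (Haus8) and 0.759 (Arhgdia). These correlations are descriptions over libraries that fall into 2 genotypes, and they name genes picked from all tested ones for their likeness.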

How the data were processed

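The sources used here name HISAT2, Picard and featureCounts in the methods, and HISAT2, SAMtools and GRCm38 in the submitters' processing notes. The annotation and strand setting of the counting are not given in the sources used here. The authors deposited raw counts per Ensembl gene, with 1 column per library, and in a second table their normalized values on a log2 scale, which were used only as an alternative. Samples were grouped by the genotype in the sample labels. Each library came from a single animal.

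Counts were tested in edgeR 4.0.16 (R 4.3.3) with TMM normalisation, keeping genes whose cpm exceeded 3 in 6 or more libraries. The quasi-likelihood model held genotype alone, and p-values were adjusted by Benjamini-Hochberg over all tested genes (FDR 0.05). The fit was tested on simulated data. Symbols, coordinates and merged exon lengths came from GENCODE M21 (GRCm38), which gave a symbol for 26545 of 26921 genes (98.6%). Exact two-sided permutation tests used all 924 splits. Ratios were described without a test. Alternatives used DESeq2 1.42.0, sva 3.50.0 and limma 3.58.1, other filters and scalings, sex-linked expression as a covariate, a replicate block, and the omission of libraries.

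The members and lists were chosen with earlier results of these data known. The genes named are the members, genes overlapping them, listed channel, pacemaker and partner genes with an FDR under 0.05, the first 10 of these with an unadjusted p under 0.05, the 2 highest per kb of each list, the 5 genes most correlated with each member past the threshold, Gch1, Xist and 4 Y-linked genes. Some of these are left out, and 1 gene of the channel lists, counted in the totals, is not reported here. Kcna4, Kcnj12, Irx5, Hlf and the marker genes fall outside this rule and were named after their values were seen. Precision depends on depth and on the spread between animals: the members had from 115 to 14867 counts per library, and reads carried no molecular identifiers.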

Additional observations from a re-analysis of the deposited data

Results flagged for a closer look

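In 30 groups of 6 values (each member and ratio in each genotype), 2 had 1 library far from the others, and chance gives about 1 in 20 groups. Kcnip2 was 248 cpm in WT replicate 1, with a gap to the next library of 0.820 of the group's range. The Kcnq1 to Kcnd2 ratio per kb was 2.87 in the same library, with a gap of 0.637 of the range.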

How the results depend on the processing

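Of the 23 alternatives, none reversed Kcnq1, Kcne1, Kcnd2, Kcnip2, Kcna5 or Kcnj11, and all kept the call of Kcnd2. Scaling by library size alone, which moved the median log2 fold change of all tested genes to 0.066, gave 0.01 for Kcnd3, 0.03 for Kcnj2, 0.00 for Kcnip2, 0.11 for Kcnk3 and -0.09 for Kcnj11. With the replicate block Kcnj2 was 0.01, with the authors' normalized values 0.00, and Kcnk3 was -0.05 with sex-linked expression as a covariate and also without both libraries with high Xist. Leaving out 1 library gave -0.12 to 0.00 for Kcnd3 (0.00 without WT replicate 6), -0.13 to 0.14 for Kcnj2 (0.14 without WT replicate 2 and 0.02 without cmGch1 KO replicate 4) and -0.01 to 0.07 for Kcnk3 (-0.01 without cmGch1 KO replicate 2 and 0.00 without cmGch1 KO replicate 3). The count of members higher was 0 with no filter, with the sex-linked covariate and without both libraries with high Xist, and ranged from 0 to 1 on leaving out 1 library. Among the other potassium channel genes, 1 was higher (Kcna4) with no filter and with filterByExpr, where it was among the genes tested, and 1 was lower (Kcnj3) with the Wald test of DESeq2 and with a surrogate variable, the cause of which was not tested. Genes called over the whole table numbered 76 higher and 50 lower, 218 and 155 by the Wald test of DESeq2, 305 and 331 with a surrogate variable, 112 and 76 with the replicate block, 40 and 24 with the sex-linked covariate, and 16 and 18 without both libraries with high Xist. Scaling by library size alone gave 116 and 36. The replicate numbers are not shown to pair the mice: the deviations of same-numbered libraries correlated at -0.128 to 0.676, and 3 of 6 correlated best with their own number. With the replicate block Kcnq1 was 0.33 and Kcnd2 -0.64. Kcne1 had as few as 115 counts in a library, and coefficients of variation of 23.5% in WT and 38.7% in cmGch1 KO.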
